A study of Mus musculus with 12 samples.

Results

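Messenger RNA can be degraded from either end, and the 40 genes described here encode the machinery of every major route other than the exosome: the deadenylases, the decapping enzyme and its enhancers, the LSM ring, the 5′ exonucleases and the factors of nonsense-mediated decay. They were taken as a list of gene symbols chosen by role, and all 40 were found in both deposited tables, among 45706 genes listed for blastocysts and 13009 listed for embryonic stem (ES) cells. In the blastocyst table, Cnot9 stands under its older symbol Rqcd1 and was matched by its Ensembl identifier.

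The study compared mice of the genotypes Dis3L WT and Dis3L KO. Dis3l codes for a nuclease of the exosome in the cytoplasm, which works on RNA from the 3′ end. By the labels there are 12 samples in 4 groups of 3: wild-type blastocysts, knockout blastocysts, wild-type ES cells and knockout ES cells, with no treatment named in the labels for either genotype. Blastocysts were taken from superovulated females 96 hours after injection of chorionic gonadotropin, and each library came from a single embryo by Tn5 tagmentation of cDNA. ES cell lines were derived from blastocysts and grown with LIF on inactivated embryonic fibroblasts as feeder cells, and their libraries were stranded and depleted of ribosomal RNA. The labels do not give the allele of the knockout, the strain, or whether the 3 ES cell samples of a genotype are separate lines. The ES cell p-values rest on 4 count columns, as given below, and the spread they measure may be technical. In blastocysts the p-values measure the spread between single embryos.

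In most mRNAs, decay begins with shortening of the poly(A) tail. The PAN2-PAN3 complex and then CCR4-NOT remove the tail, after which the cytoplasmic LSM ring and the DCP2 decapping enzyme expose the 5′ end to the exonuclease XRN1, while the exosome can work inwards from the 3′ end of the same molecule. Nonsense-mediated decay recognises mRNAs with premature stop codons through UPF1 and its partners and feeds them into these nucleases.

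Neither deposited table states which genotype was divided by which, so values are given for a positive side, which a positive fold change favours, and a negative side. Each table holds a mean over libraries, and because every such mean is built from whole reads, the reads behind it could be recovered: 6 count columns for blastocysts (3 on each side) and 4 for ES cells (2 on each side, where the labels list 6 samples). Count columns were not assigned to genotypes or samples. The reads of 38 of the 40 members were recovered in blastocysts and of 37 in ES cells. The missing ones are highly expressed, Cnot1 and Xrn2 in both tables and Ddx6 in ES cells. Dis3l itself did not separate the sides in blastocysts, with 26, 8 and 0 reads on the positive side (0 reads allow up to 6.86 normalised reads there, counting 3 pairs of reads as the limit, since nearly all blastocyst counts are even) and 10, 4 and 8 on the negative side, so it does not tell which side is the knockout. In ES cells Dis3l had 14 and 8 reads on the positive side against 39 and 39 on the negative side (log2 fold change −0.88, SE 0.33, unadjusted p = 0.00778, adjusted p = 0.445 by DESeq2 in the authors' deposited table).

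The labelled materials carried their markers. In blastocysts all 7 pluripotency, 7 trophectoderm and 5 primitive endoderm markers had a mean of at least 10, and 7 of 9 fibroblast markers were at 0. The ES cell table held all 7 pluripotency markers and all 9 fibroblast markers, the latter with summed normalised reads of 552 and 486 on the positive side against 520.1 and 1981 on the negative side. One ES cell column, the second on the negative side, therefore stands apart in its content of fibroblast RNA. Without it, the log2 ratio of recovered reads between sides changed sign for 11 of the 37 recovered members and moved by over 1.5 times, with the same sign, for 16 more. Leaving out the first negative-side column instead also changed signs, as for Xrn1 (0.18 to −0.04) and Lsm4 (−0.32 to 0.77). With 2 columns on a side, each column weighs heavily in a ratio, so these counts do not single out the second. This column also differs from the others by transcript length, as given below. The parts of fibroblast RNA and of length in these ratios were not tested. By fold change in the authors' deposited ES cell table, all 7 pluripotency markers were negative (median −0.34). So were 7 of 8 tested fibroblast markers (median −0.41), 2 of 3 trophectoderm markers (median −0.37) and 0 of 2 primitive endoderm markers (median 0.09). At an unadjusted p under 0.05 by DESeq2 there were 0, 2, 1 and 0 markers of these lists. In bulk libraries, fewer cells of a type and less RNA per cell cannot be told apart.

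None of the 40 decay genes passed an adjusted p of 0.05 in either material. In the authors' deposited table for blastocysts, 15 of 15209 tested genes did so (0.0986%), and at an unadjusted p under 0.05 the count was 0 of 40 members against 945 of all tested genes (6.21%). In the authors' deposited table for ES cells, 28 of 10739 tested genes passed (0.261%), and at an unadjusted p under 0.05 there was 1 member, Cnot6, against 604 of all tested genes (5.62%). Counts of 0 and 1 among 40 members do not show a difference from the share of all genes. The members' median mean was also higher than that of all tested genes (179 against 46.3 in blastocysts, 96.2 against 62.4 in ES cells). The authors' deposited tables gave members a median log2 fold change of −0.03 in blastocysts (19 positive, 21 negative; all tested genes −0.04) and 0.04 in ES cells (23 positive, 17 negative; all tested genes −0.00).

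What the tests could have shown was limited in each material. The standard error of a member's log2 fold change ranged from 0.28 to 1.55 in blastocysts (median 0.47) and from 0.21 to 0.33 in ES cells (median 0.28), per the authors' deposited tables. The smallest Wald statistic that was called stood at 4.07 in blastocysts and 3.83 in ES cells, against 1.78 and 2.03 for the most extreme member. At its own error, a member would have needed a deposited log2 fold change of 1.14 to 6.32 in blastocysts (median 1.92) to be called. In ES cells the deposited value needed was 0.787 to 1.27 (median 1.08). Smaller deposited values could not be called. The ES cell fold changes appear shrunken towards 0 by the authors' model, so sizes, errors and these limits are not compared between the tables. For the same reason the ES cell limits are not sizes of change in reads. Dis3l there had 11.2 and 10.5 normalised reads against 37.1 and 37.7, a deposited log2 fold change of −0.88, and was not called.

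**Figure D1:**
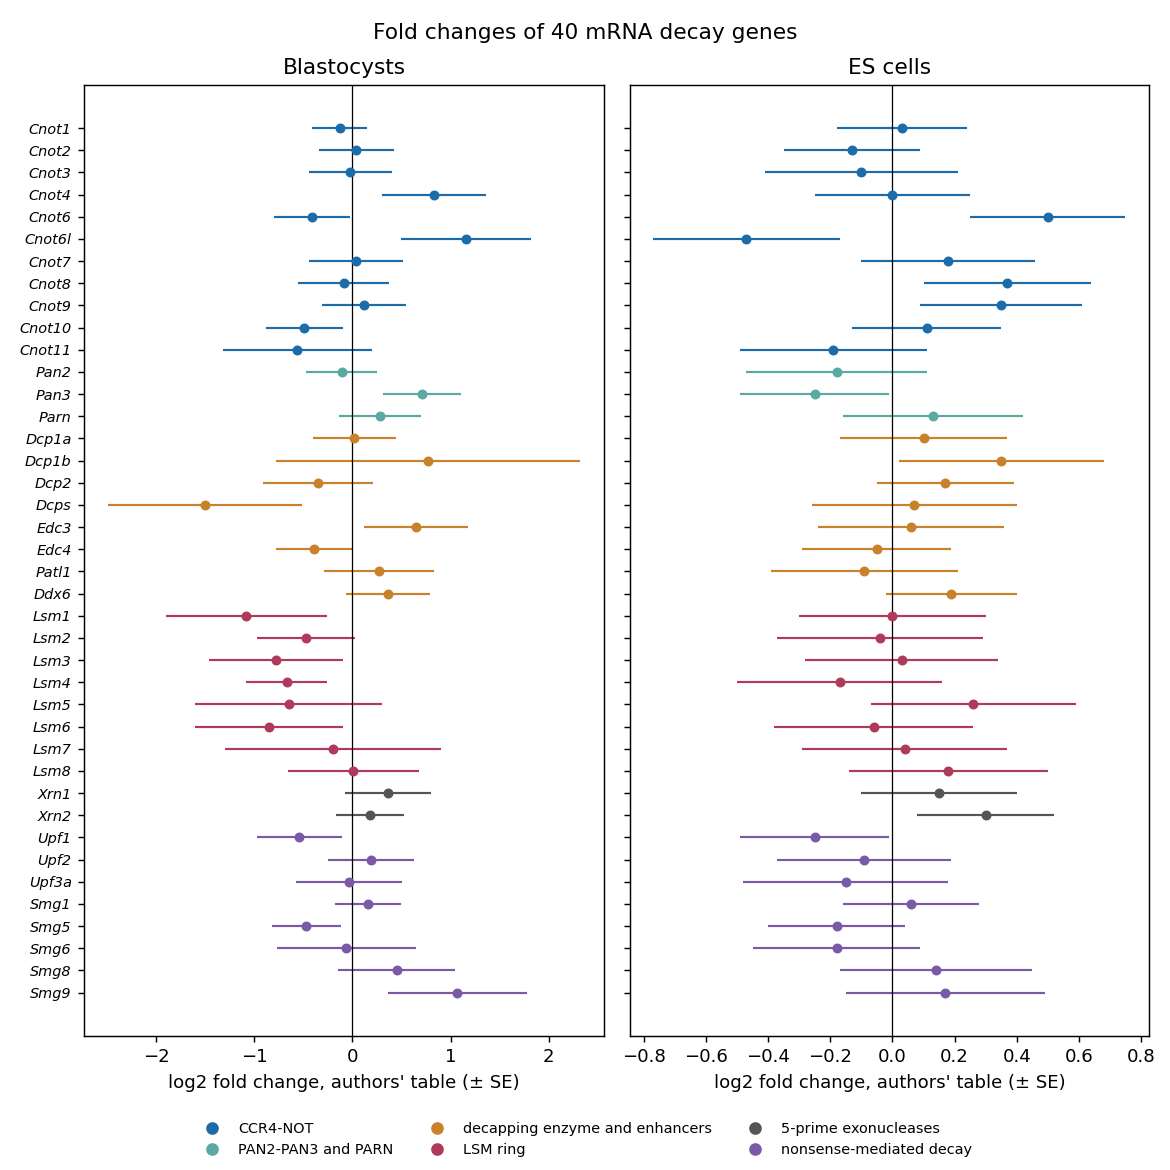
Log2 fold change (x axis, authors' deposited tables, bars ± SE) of the 40 decay genes (y axis), coloured by role, in blastocysts and ES cells; the x axes have different ranges. Members lie on both sides of 0 in each table, from −1.50 to 1.16 in blastocysts and from −0.47 to 0.50 in ES cells, and in blastocysts 7 of 8 LSM genes lie below 0.

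Without a p-value, overlap of the recovered columns gave a second description. In blastocysts, 9 of the 32 members with a mean from 10 to 300 had sides that did not overlap, 3 with the positive side higher (Cnot4, Pan3, Smg9; background 5.29% of genes) and 6 with it lower (Dcps, Lsm1, Lsm2, Lsm4, Lsm6, Cnot6; background 6.74%). Over all 8756 tested genes in that range, 1053 (12.0%) did not overlap in either direction. In ES cells, where only 2 columns meet 2, 12 of 37 members did not overlap, beside 4110 of 10191 genes with a mean from 10 to 800 (40.3%). The members' share was larger than that of all genes in blastocysts and smaller in ES cells, which is a description without a test. The positive side was higher for Dcp1b, Dcp2, Lsm5, Cnot6, Cnot7, Cnot9 and Cnot10 (7 genes; background 20.0%) and lower for Cnot6l, Pan3, Upf1, Upf3a and Smg5 (5 genes; background 20.3%). Without the second negative-side column, the counts became 18 of 32 in blastocysts (background 31.4%) and 25 of 37 in ES cells (background 70.8%).

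Most of the decay genes were expressed at middle to high levels per length of exon. In blastocysts the members' level, the authors' mean per kb of exon, had a median percentile of 71.2 among tested genes, and 33 of 40 lay above the 50th percentile. Lsm4 was highest (211 normalised reads per kb, percentile 95.9), followed by the nuclear 5′ exonuclease gene Xrn2 (191 per kb, 95.4) and Cnot2, a scaffold subunit of CCR4-NOT (90.3 per kb, 88.5). At the bottom were the decapping cofactor gene Dcp1b (2.24 per kb, percentile 17.6), the deadenylase gene Cnot6l (9.30 per kb, 41.5) and the cytoplasmic exonuclease gene Xrn1 (10.9 per kb, 44.9). In ES cells the median percentile was 66.6, and 28 of 40 members lay above the 50th. Xrn2 (174 per kb, percentile 97.6), Cnot2 (113 per kb, 95.4) and Ddx6 (88.9 per kb, 93.7) were highest, and Dcp1b (4.12 per kb, 13.9), Upf3a (5.85 per kb, 22.3) and Lsm2 (6.32 per kb, 24.5) lowest. Xrn2 was in the top 3 and Dcp1b lowest in both tables, also when the length of the longest transcript replaced that of all exons. Other places depend on that choice: by longest transcript, Cnot1 (percentile 90.8) ranked above Cnot2 (89.2) in blastocysts, and Xrn1 (52.2) was no longer among the lowest 3. Library type and material differ together between the tables and cannot be told apart in this ranking.

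**Figure D2:**
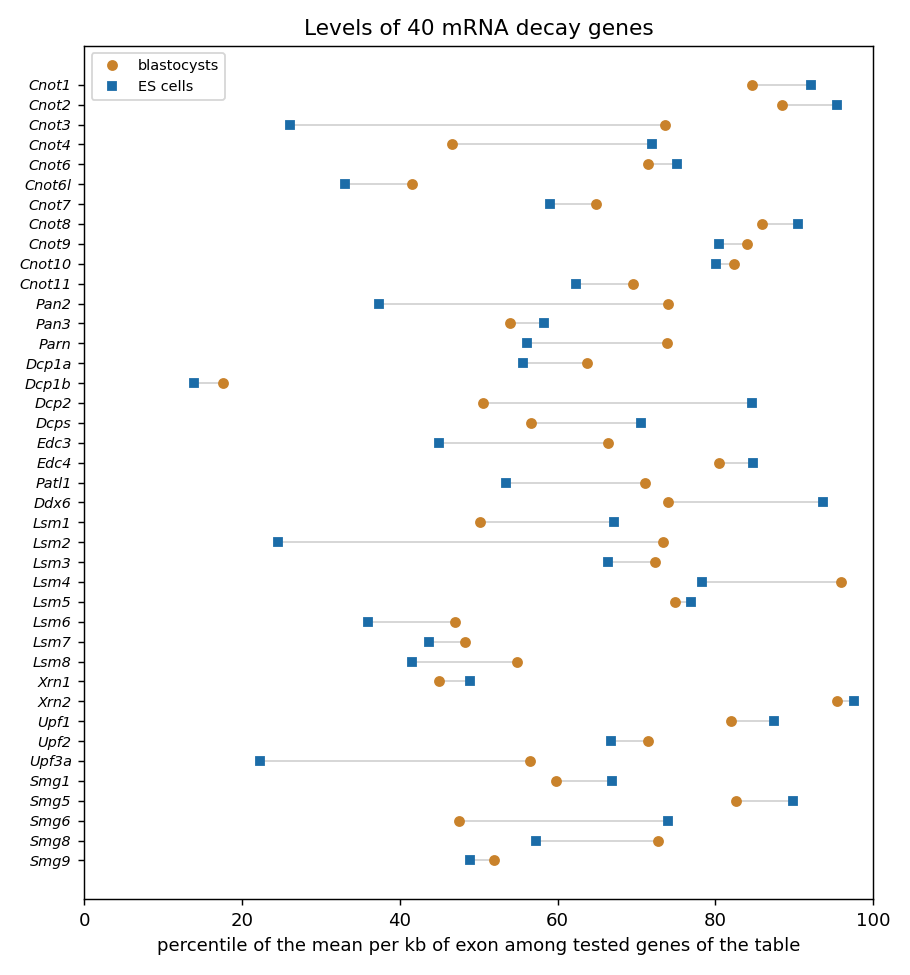
Level of each of the 40 decay genes (y axis), as the percentile of its mean per kb of exon among tested genes of the same table (x axis), in blastocysts (circles) and ES cells (squares), joined by a line. Dcp1b has the lowest percentile in both tables (17.6 and 13.9), while Lsm2 (73.4 and 24.5) and Cnot3 (73.6 and 26.1) are far apart.

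Most of these genes start in CpG-rich promoters. RefSeq promoter windows (GRCm38.p6, 250 bases before to 50 after the start) were found for 34 of the 40 members. Of these 34, 32 (94.1%) had a ratio of observed to expected CG dinucleotides above 0.6, against 38.3% of 27025 genes in the same table. Their median GC content was 63.5%, against 53.0% for all genes. Where a gene had several windows, the one with the highest ratio was used. The 27025 genes were not limited to expressed genes, so the difference is not shown to be particular to decay genes. This is a description of the windows and was not linked to any fold change.

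CCR4-NOT, the main cytoplasmic deadenylase, is built on the scaffold subunit CNOT1 and carries a pair of nuclease types, each encoded by paralogs: CNOT6 or CNOT6L of the exonuclease-endonuclease-phosphatase type and CNOT7 or CNOT8 of the DEDD type. Because these paralogs can take each other's place in the complex, it matters whether reads can be told apart between them. The coding sequences below (GENCODE M21 transcripts on GRCm38, coding strand, 5′ to 3′) show, in capitals, the longest run of bases each pair shares, with 40 bases on either side.
Cnot6 (chromosome 11, coding bases 1260 to 1359): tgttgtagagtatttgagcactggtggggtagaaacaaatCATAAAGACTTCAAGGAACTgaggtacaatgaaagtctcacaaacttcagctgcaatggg
Cnot6l (chromosome 5, coding bases 1254 to 1353): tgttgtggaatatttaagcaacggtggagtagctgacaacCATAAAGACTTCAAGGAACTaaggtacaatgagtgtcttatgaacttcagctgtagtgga
Cnot7 (chromosome 8, coding bases 423 to 522): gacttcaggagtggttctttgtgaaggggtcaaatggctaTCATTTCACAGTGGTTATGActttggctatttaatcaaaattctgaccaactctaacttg
Cnot8 (chromosome 11, coding bases 423 to 522): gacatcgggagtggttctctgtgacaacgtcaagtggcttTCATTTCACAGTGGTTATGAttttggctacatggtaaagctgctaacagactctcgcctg
Cnot6 and Cnot6l are 73.6% identical over their aligned coding bases and Cnot7 and Cnot8 72.3%, and in neither pair is a run of more than 20 bases shared. Of all 50-base stretches of the transcripts, 0.752% in Cnot6, 0% in Cnot6l and 0.169% in Cnot7 occur in another gene. For Cnot8 the share is 7.82%, mainly with the pseudogene Gm18860, so its reads are less certain.

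The median log2 fold change of the 11 CCR4-NOT genes was −0.02 in blastocysts (5 positive, 6 negative) and 0.03 in ES cells (6 positive, 5 negative), per the authors' deposited tables. The scaffold gene Cnot1 was the most abundant member by mean in each material and lay close to 0, at −0.13 (SE 0.28) in blastocysts and 0.03 (SE 0.21) in ES cells, as the authors' deposited tables give them. The non-catalytic subunits Cnot2, Cnot3 and Cnot9 also lay near 0 in blastocysts, at 0.04, −0.02 and 0.12 in the authors' deposited table. In ES cells they stood at −0.13 (SE 0.22), −0.10 (SE 0.31) and 0.35 (SE 0.26) in the authors' deposited table, and Cnot9 was higher on the positive side without overlap, at 162 and 162 normalised reads against 119 and 122.

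Cnot6 (chromosome 11, 49671503 to 49712723) had fold changes of opposite sign in the 2 materials. In blastocysts it had 177, 213 and 213 normalised reads on the positive side against 256, 303 and 242 on the negative side, so the positive side was lower without overlap. In ES cells it had 227 and 250.2 on the positive side against 142 and 171 on the negative side, which puts the positive side higher without overlap. The authors' deposited tables give log2 fold changes of −0.41 (SE 0.39, unadjusted p = 0.290, adjusted p = 0.813) and 0.50 (SE 0.25, unadjusted p = 0.0425, adjusted p = 0.858), from DESeq2. Without the ES cell column rich in fibroblast markers, the log2 ratio of recovered Cnot6 reads was 0.75, against 0.61 with it. Leaving out the first negative-side column instead gave 0.48. Neither fold change passed the adjusted threshold, and the difference between materials was not tested.

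Cnot6l (chromosome 5, 96070333 to 96164171) had the converse signs. In blastocysts it had 124, 85.3 and 187 normalised reads on the positive side against 33.4, 105 and 40.3 on the negative side. The sides overlap through the second negative-side column alone, and without it the log2 ratio of recovered reads moves from 1.15 to 1.84. With any other column left out instead, the ratio was between 0.82 and 1.39. The longest coding transcript of Cnot6l has 8564 bases. For 425 genes above 8000 bases, the median log2 distance from their own mean was 0.10, 0.03 and −0.10 on the positive side. On the negative side it was −0.25, 0.06 and −0.47, and the part of length in the Cnot6l values was not tested. Cnot6l has the largest positive fold change among the members (1.16, SE 0.66, unadjusted p = 0.0815, adjusted p = 0.811 by DESeq2 in the authors' deposited table). In ES cells it had 77.4 and 56.6 on the positive side against 81.8 and 130.4 on the negative side, the most negative fold change there (−0.47, SE 0.30, unadjusted p = 0.114 by DESeq2 in the authors' deposited table). The column at 130.4 is the one with the summed fibroblast markers of 1981, and without it the log2 ratio of recovered reads was −0.29 in place of −0.66. Leaving out the first negative-side column instead gave −0.96. The part of fibroblast RNA in these ratios was not tested.

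The ratio of these 2 nuclease genes within a library follows from their opposite fold changes and is not a further result. The ratio of Cnot6 to Cnot6l reads was 1.43, 2.5 and 1.13 in the positive-side columns of the blastocysts and 7.67, 2.89 and 6.0 in the negative-side columns. In ES cells it was 2.93 and 4.42 on the positive side against 1.73 and 1.31 on the negative side. The ratios did not overlap between sides in either table, and the order of the sides was opposite in the 2 tables. The share of other gene pairs that do so was not computed. In ES cells the ratio of Dcp1a to Dcp1b reads did not overlap either (4.18 and 4.52 against 7.75 and 5.42). Those of Cnot7 to Cnot8 and of Lsm1 to Lsm8 overlapped there. A ratio within a library shows unequal levels of the pair and carries no test here, since it was looked at after the values of both genes were known. The longest coding transcripts also differ, with 5736 bases for Cnot6 and 8564 for Cnot6l. The part of length in the ratio was not tested.

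Cnot7 and Cnot8 showed no such pattern. In blastocysts Cnot7 had 106, 201 and 167 normalised reads on the positive side against 145, 181 and 135 on the negative side, and Cnot8 had 199.9, 138 and 242 against 165, 288 and 167. Both pairs of sides overlap. In ES cells Cnot7 had 109 and 116 against 97.0 and 94.7, and Cnot8 157 and 248 against 162 and 129. Their fold changes in the authors' deposited tables were 0.04 (SE 0.48) and −0.09 (SE 0.46) in blastocysts and 0.18 (SE 0.28) and 0.37 (SE 0.27) in ES cells.

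**Figure D3:**
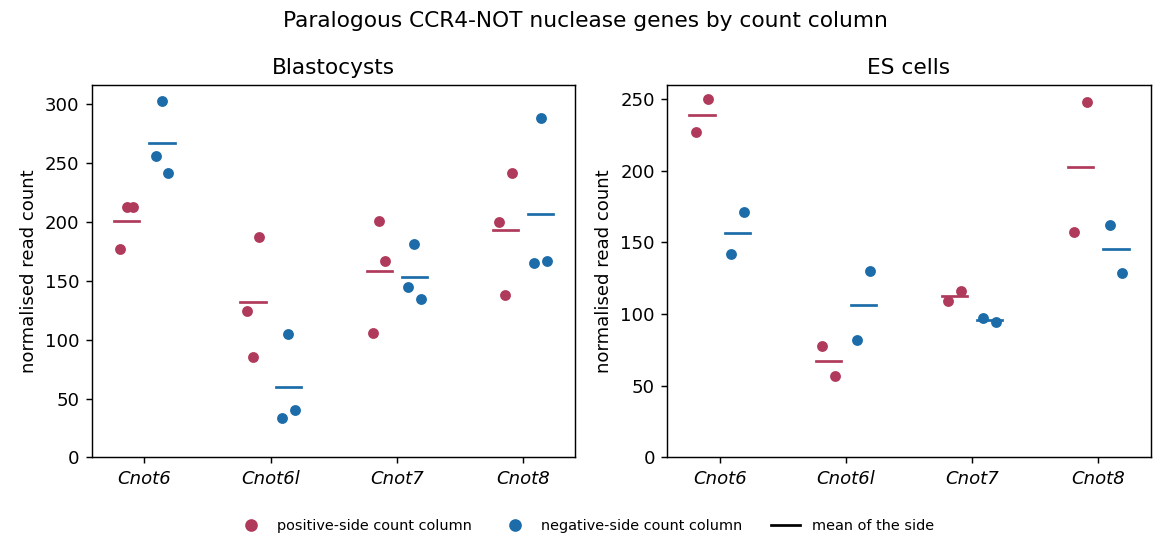
Normalised read count (y axis) of the paralogous CCR4-NOT nuclease genes in each recovered count column of the blastocyst and ES cell tables; points are columns of the positive and negative side, short lines their means. Cnot6 lies lower on the positive side in blastocysts (177 to 213 against 242 to 303) and higher in ES cells (227 and 250.2 against 142 and 171), while Cnot7 and Cnot8 overlap in blastocysts.

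Cnot4, a ubiquitin ligase associated with the complex, had 98.5, 177 and 169 normalised reads on the positive side of the blastocysts against 84.1, 82.5 and 83.4 on the negative side. The negative-side columns are nearly equal and all lie below the positive side, yet the fold change of 0.83 did not pass (SE 0.53, unadjusted p = 0.117, adjusted p = 0.811 by DESeq2 in the authors' deposited table). In ES cells the fold change was −0.00 (SE 0.25) in the authors' deposited table. The log2 ratio of recovered reads was 0.34 without the column rich in fibroblast markers, in place of −0.00. It was −0.28 without the first negative-side column. Cnot10 and Cnot11, which form a module of their own on the scaffold, stood at −0.49 (SE 0.39) and −0.56 (SE 0.76) in blastocysts and at 0.11 (SE 0.24) and −0.19 (SE 0.30) in ES cells, per the authors' deposited tables. Cnot11 varied widely among the negative-side blastocyst columns, at 21, 118 and 268 normalised reads.

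PAN2-PAN3 trims long poly(A) tails before CCR4-NOT, and PARN is a poly(A)-specific ribonuclease that acts mainly on structured and non-coding RNAs. Pan3 (chromosome 5, 147430161 to 147548502), which encodes the subunit that binds RNA and recruits the PAN2 nuclease, had the smallest unadjusted p of the members in blastocysts. Its normalised reads were 307, 278 and 327 on the positive side against 142, 229.7 and 187 on the negative side, without overlap (log2 fold change 0.71, SE 0.40, unadjusted p = 0.0750, adjusted p = 0.811 by DESeq2 in the authors' deposited table). In ES cells they were 231 and 238 on the positive side against 248 and 329 on the negative side, again without overlap but in the other direction (−0.25, SE 0.24, unadjusted p = 0.294 by DESeq2 in the authors' deposited table). The value of 329 comes from the column rich in fibroblast markers, without which the log2 ratio of recovered reads was −0.08 in place of −0.30. That ratio was −0.49 without the first negative-side column. The nuclease gene Pan2 stood at −0.11 (SE 0.36) in blastocysts and −0.18 (SE 0.29) in ES cells, as the authors' deposited tables give them. Parn, at 0.28 (SE 0.42) and 0.13 (SE 0.29) in the same authors' deposited tables, overlapped between sides in both materials.

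Decapping removes the 5′ cap and commits an mRNA to decay. DCP2 is the enzyme, DCP1A and DCP1B are alternative cofactors, EDC3, EDC4, PATL1 and the helicase DDX6 assemble or stimulate the complex, and DCPS hydrolyses the cap left over from decay by the exosome. Of the 8 genes, 5 had a positive fold change in blastocysts (median 0.15) and 6 in ES cells (median 0.09), per the authors' deposited tables.

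Dcps (chromosome 9, 35124408 to 35176061) had the most negative log2 fold change of all members in blastocysts. It had 10.7, 20.3 and 11.4 normalised reads on the positive side against 52.0, 24.5 and 43.2 on the negative side, so the sides did not overlap, but the counts are low and the fold change did not pass (−1.50, SE 0.99, unadjusted p = 0.130, adjusted p = 0.811 by DESeq2 in the authors' deposited table). In ES cells the sides overlapped, with 47.1 and 30.3 on the positive side against 47.5 and 24.2 (log2 fold change 0.07, SE 0.33, in the authors' deposited table). The log2 ratio of recovered reads there was 0.11, with −0.30 without the column rich in fibroblast markers and 0.68 without the first negative-side column. Dcps also shares 7.65% of its exon bases with a gene on the opposite strand, and whether reads were counted by strand is not given in the sources used here, so reads of the overlap could belong to either gene.

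The catalytic gene Dcp2 did not differ beyond its error in either material. It had 121, 89.3 and 117 normalised reads on the positive side of the blastocysts against 171, 176 and 69.1 on the negative side (−0.35, SE 0.56, in the authors' deposited table), and in ES cells 399 and 454 against 356 and 387 (0.17, SE 0.22, in the authors' deposited table). Of its cofactors, Dcp1a was the more abundant. Dcp1a had 254, 191 and 187 normalised reads against 247, 207 and 167 in blastocysts, a fold change of 0.02 (SE 0.42) in the authors' deposited table, and 130.1 and 149 against 118 and 136 in ES cells (0.10, SE 0.27, in the authors' deposited table). Dcp1b had 25.7, 12.2 and 16 against 19.8, 0 and 11.5 in blastocysts, where 0 reads in the second negative-side column allow up to 6.69 normalised reads, again 3 pairs, by counting error. In ES cells Dcp1b had 31.1 and 32.9 against 15.2 and 25.1 (0.35, SE 0.33, in the authors' deposited table). Its log2 ratio of recovered reads was 0.67, with 1.07 without the second of these negative-side columns and 0.35 without the first. Dcp1a reads exceeded Dcp1b reads in every column in which Dcp1b was detected, by 9.89 to 15.7 times in blastocysts and 4.18 to 7.75 times in ES cells. The longest run of bases the coding sequences of these paralogs share is 15, which is shown here in capitals between 40 flanking bases on either side.
Dcp1a (chromosome 14, coding bases 151 to 245): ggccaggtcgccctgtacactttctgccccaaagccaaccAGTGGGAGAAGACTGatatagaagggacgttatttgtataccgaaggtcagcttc
Dcp1b (chromosome 6, coding bases 106 to 200): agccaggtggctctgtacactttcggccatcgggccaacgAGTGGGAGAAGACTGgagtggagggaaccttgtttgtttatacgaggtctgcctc

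Among the enhancers, Edc3 and Ddx6 lay above 0 and Edc4 below it in blastocysts, at 0.65 (SE 0.53), 0.36 (SE 0.43) and −0.39 (SE 0.39) in the authors' deposited table, and each overlapped between sides. Patl1, at 0.27 (SE 0.56) in the authors' deposited table, had 1 low column, the second on the negative side, with 53.5 normalised reads where the other 5 columns held 149 to 176. In ES cells these 4 genes stood between −0.09 and 0.19 in the authors' deposited table. Edc3 shares 22.1% of its exon bases with Clk3 on the opposite strand, and Edc4 8.33% with Nrn1l on the same strand.

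LSM1 to LSM7 form the cytoplasmic ring that binds the shortened tail and promotes decapping. LSM8 takes the place of LSM1 in the nuclear ring, which belongs to the U6 snRNP of the spliceosome. In blastocysts 7 of the 8 genes had a negative log2 fold change (median −0.66), beside 51.7% of all tested genes. None passed the test at an unadjusted p under 0.05, and in 4 of 8 the positive side was lower without overlap, beside 6.74% of all genes. In ES cells 3 of 8 were negative and the median was 0.02, per the authors' deposited table. The difference between materials was not tested.

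Lsm1, the subunit specific to the cytoplasmic ring, had 18.6, 30.4 and 34.3 normalised reads on the positive side of the blastocysts against 80.4, 60.2 and 34.5 on the negative side. The sides did not overlap, but their nearest columns, at 34.3 and 34.5, almost met, and the fold change was −1.08 (SE 0.82, unadjusted p = 0.185, adjusted p = 0.811 by DESeq2 in the authors' deposited table). Its nuclear counterpart Lsm8 had 68.5, 87.3 and 59.4 against 50.7, 111 and 51.8, a fold change of 0.01 (SE 0.67) in the authors' deposited table. In ES cells Lsm1 had 59.1 and 83.0 against 66.6 and 74.4 and Lsm8 51.1 and 48.7 against 33.3 and 49.3, with sides that overlapped for both genes. For Lsm8 the overlap is through the 49.3 of the column rich in fibroblast markers, without which the log2 ratio was 0.58 in place of 0.27. It was 0.02 when the first negative-side column was left out instead. The coding sequences of Lsm1 and Lsm8 share no run longer than 8 bases.

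Of the subunits common to both rings, Lsm4 was the best measured. Its normalised reads were 171, 197 and 137 on the positive side of the blastocysts against 309, 272 and 224 on the negative side (−0.67, SE 0.41, unadjusted p = 0.101, adjusted p = 0.811 by DESeq2 in the authors' deposited table). Lsm2 had 107, 108 and 91.4 against 173, 123 and 127, and Lsm6 41.4, 36.5 and 27.4 against 42.1, 84.7 and 63.3, both without overlap. Lsm3 has the most negative fold change among members with a mean of at least 50 in blastocysts (−0.78, SE 0.68, unadjusted p = 0.245 by DESeq2 in the authors' deposited table), yet its sides overlapped, at 80.0, 93.4 and 48.0 against 155, 40.1 and 187. Lsm5 (−0.65, SE 0.95) and Lsm7 (−0.20, SE 1.10) overlapped too, per the authors' deposited table, and are less certain because 21% and 14.3% of their 50-base stretches occur in pseudogenes. In ES cells Lsm2 had 24.0 and 14.5 against 16.2 and 25.1, and Lsm4 27.1 and 35.6 against 59.9 and 18.4, so the sides of each overlapped. The overlap of Lsm4 rests on the 18.4 of the column rich in fibroblast markers, without which both positive-side columns lay below the negative side (log2 ratio −0.93 in place of −0.32). Lsm2 overlapped without that column too, with a log2 ratio of 0.25 in place of −0.10. Leaving out the first negative-side column instead gave log2 ratios of 0.77 for Lsm4 and −0.39 for Lsm2.

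**Figure D4:**
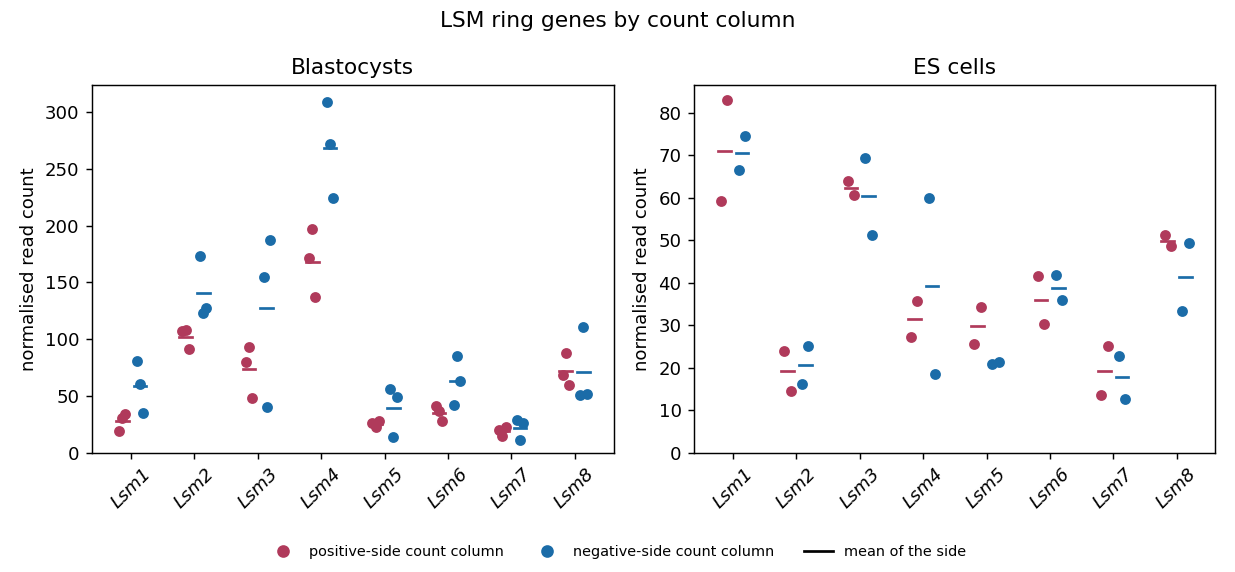
Normalised read count (y axis) of the 8 LSM genes in each recovered count column; points are columns of the positive and negative side, short lines their means. In blastocysts the positive-side columns of Lsm1, Lsm2, Lsm4 and Lsm6 lie below every negative-side column (Lsm4, 137 to 197 against 224 to 309), and in ES cells these 4 genes overlap when all 4 columns are used.

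Fold change in blastocysts also moved with transcript length, and 5 of the 8 LSM genes are in the shortest class. Among all tested coding genes, the median log2 fold change in the authors' deposited table was −0.34 where the longest coding transcript had up to 1000 bases (633 genes, 67.1% negative), −0.26 from 1000 to 2000 bases, −0.05 from 2000 to 4000, 0.12 from 4000 to 8000 and 0.21 above 8000 bases (680 genes, 37.9% negative). In ES cells the same classes had medians from −0.01 to 0.04. Single ES cell columns nevertheless moved with length. For 488 genes of up to 1000 bases, the median log2 distance from their own mean was 0.13 and −0.28 in the negative-side columns. For 626 genes above 8000 bases it was −0.17 and 0.13, while the positive-side columns stayed between −0.04 and 0.03. The second negative-side column is the one rich in fibroblast markers, so ratios without it also leave out this length difference. Lsm2, Lsm3, Lsm4, Lsm5 and Lsm8 fall in the shortest class and had a median of −0.65 in blastocysts. In that class, 14.0% of blastocyst genes had a lower positive side and no overlap. Lsm1 and Lsm6 fall in the class from 2000 to 4000 bases, and Dcps and Lsm7 in that from 1000 to 2000. By blastocyst column, the LSM genes had a median log2 distance from their own mean of −0.28, −0.30 and −0.36 on the positive side. On the negative side it was 0.50, 0.16 and 0.19. For 381 genes of up to 1000 bases the same values were −0.33, −0.29 and −0.29 and 0.15, −0.17 and 0.28. Both sets were thus lower on the positive side. The summed reads of 6 pluripotency markers were also lower there, with 1152, 571 and 433 on the positive side against 1627, 1157 and 1870.2 on the negative side. Over the marker lists, 5 of 7 pluripotency markers were negative (median −0.53, 3 at an unadjusted p under 0.05), 3 of 7 trophectoderm markers (median 0.17, 3 at an unadjusted p under 0.05) and 4 of 5 primitive endoderm markers (median −0.16, 0 at an unadjusted p under 0.05), in the authors' deposited table. The 1 primitive endoderm marker with recovered reads overlapped between sides, at 168, 97.4 and 82.3 against 64.3, 89.2 and 239, and no reads of trophectoderm markers were recovered. The part of length or of cell composition in the LSM values was not tested.

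**Figure D5:**
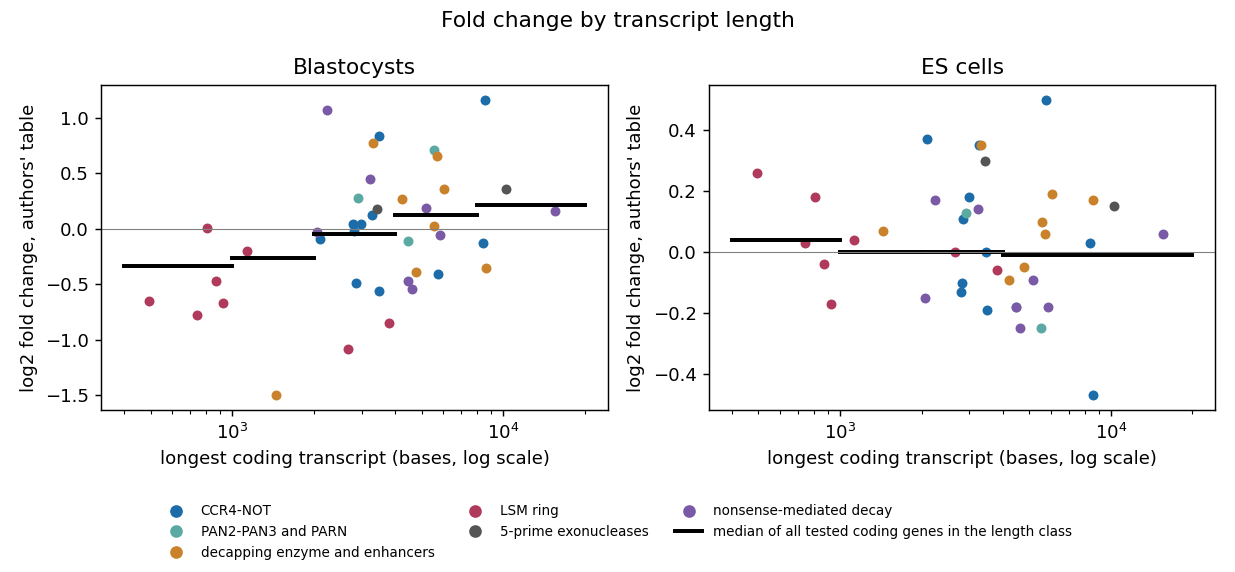
Log2 fold change (y axis, authors' deposited tables) of the 40 decay genes against the length of the longest coding transcript (x axis, bases, log scale), coloured by role; black bars are medians of all tested coding genes in 5 length classes. In blastocysts the bars climb from −0.34 to 0.21 with length, and in ES cells they stay between −0.01 and 0.04.

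XRN1 degrades decapped mRNA in the cytoplasm, and XRN2 works on nuclear RNA and in transcription termination. Neither gene passed the test at an unadjusted p under 0.05 in either material. Xrn1 (chromosome 9, 95954760 to 96057803) had 238, 195 and 251 normalised reads on the positive side of the blastocysts against 195, 221 and 115 on the negative side (0.36, SE 0.44, unadjusted p = 0.413, adjusted p = 0.902 by DESeq2 in the authors' deposited table). In ES cells it had 260.3 and 269 against 195 and 272 (0.15, SE 0.25, unadjusted p = 0.538 by DESeq2 in the authors' deposited table). The sides overlap only through the 272 of the column rich in fibroblast markers, without which the log2 ratio of recovered reads was 0.44 in place of 0.18. That ratio was −0.04 without the first negative-side column. Xrn2 was the more abundant per kb in both materials and stood at 0.18 (SE 0.35) in blastocysts and 0.30 (SE 0.22) in ES cells, as the authors' deposited tables give them, with no columns recovered.

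The 8 members of nonsense-mediated decay split evenly in blastocysts (4 positive, 4 negative, median 0.06) and had 3 positive and 5 negative fold changes in ES cells (median −0.12), per the authors' deposited tables. Upf1, the central helicase, was negative in both materials. It had 246, 217 and 208 normalised reads on the positive side of the blastocysts against 306, 479 and 189.9 on the negative side, which overlap (−0.54, SE 0.43, unadjusted p = 0.214 by DESeq2 in the authors' deposited table). In ES cells it had 236 and 208 against 296 and 249 (−0.25, SE 0.24, unadjusted p = 0.299 by DESeq2 in the authors' deposited table), without overlap. Upf2, its bridging partner, stood at 0.19 (SE 0.44) and −0.09 (SE 0.28) in the authors' deposited tables. Upf3a and its X-linked paralog Upf3b, which is not among the 40, encode the link to the exon junction complex. Upf3a stood at −0.03 (SE 0.54) in blastocysts and −0.15 (SE 0.33) in ES cells, and Upf3b at 0.70 (SE 0.76) and −0.52 (SE 0.30, unadjusted p = 0.0852 by DESeq2), in the authors' deposited tables.

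SMG1 is the kinase that phosphorylates UPF1, SMG8 and SMG9 bind and regulate it, and SMG5 and SMG6 read the phosphorylated form, SMG6 as an endonuclease. The kinase gene Smg1 lay close to 0, at 0.16 (SE 0.34) in blastocysts and 0.06 (SE 0.22) in ES cells, as the authors' deposited tables give them. Smg9 had 90.7, 87.3 and 50.3 normalised reads on the positive side of the blastocysts against 43.3, 33.4 and 31.6 on the negative side, so every positive-side column was higher (1.07, SE 0.71, unadjusted p = 0.131, adjusted p = 0.811 by DESeq2 in the authors' deposited table). In ES cells it overlapped, at 48.7 and 59.3 against 52.3 and 37.7. The log2 ratio of recovered Smg9 reads was 0.26, with 0.05 without the last of these columns and 0.52 without the first negative-side column. Its partner Smg8 had 141, 71.0 and 203 against 146, 91.4 and 66.2 in blastocysts, which overlap. Smg5 had 415 and 392 against 465 and 468 in ES cells, lower on the positive side without overlap, and −0.47 (SE 0.35, unadjusted p = 0.184 by DESeq2) in blastocysts with overlap, per the authors' deposited tables. Smg6 varied widely among the negative-side blastocyst columns, at 54.4, 223 and 43.2 normalised reads (−0.06, SE 0.71, in the authors' deposited table).

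Beyond the 40, a list of 65 further genes of the same pathways held the recruiters of deadenylases, other cap and tail enzymes, exon junction proteins, ribosome rescue factors and known targets of nonsense-mediated decay. Of 62 tested in blastocysts 0 passed the adjusted threshold (background 0.0986%) and 3 had an unadjusted p under 0.05 (background 6.21%), with a median log2 fold change of 0.08 in the authors' deposited table. Of 56 tested in ES cells 0 passed (background 0.261%) and 1 had an unadjusted p under 0.05 (background 5.62%), with a median of −0.03 in the authors' deposited table. Counts as small as 3 and 1 do not show a difference from the share of all genes. The 3 blastocyst genes are all adaptors or recruiters of deadenylases, which made up 25 of the 62 tested, and they did not share a direction.

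Pum2, a sequence-specific repressor, had 864, 851 and 1166 normalised reads on the positive side against 376, 829 and 291 on the negative side (0.94, SE 0.40, unadjusted p = 0.0176, adjusted p = 0.667 by DESeq2 in the authors' deposited table). Btg1, an antiproliferative protein that binds CNOT7 and CNOT8, had 209.9, 221 and 509.7 against 81.6, 207 and 152 (1.09, SE 0.52, unadjusted p = 0.0346, adjusted p = 0.769 by DESeq2 in the authors' deposited table). Its relative Btg3 went the other way, at 17.1, 16.2 and 9.14 against 114, 12.3 and 83.4 (−2.30, SE 0.97, unadjusted p = 0.0173, adjusted p = 0.667 by DESeq2 in the authors' deposited table). In each of these 3 genes, as in Cnot6l, the second negative-side column lay nearest to the positive side. In ES cells Angel2, a relative of the CNOT6 nucleases, had 95.8 and 84.3 on the positive side against 44.7 and 38.7 on the negative side (0.79, SE 0.30, unadjusted p = 0.00892, adjusted p = 0.464 by DESeq2 in the authors' deposited table). The known targets of nonsense-mediated decay had a median of 0.33 in blastocysts (5 tested) and −0.16 in ES cells (3 tested), with none at an unadjusted p under 0.05 in the authors' deposited tables.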

How the data were processed

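RNA sequencing was done on Dis3L WT and Dis3L KO blastocysts and ES cells, 12 samples by the labels. Per the submitters' processing notes, STAR 2.4.0b, Subread 2.0.1 with featureCounts and DESeq2 1.34.0 were used on GRCm38; filters and strand setting are not given in the sources used here. The signal column holds the authors' mean of normalised counts over libraries, per the file headers. Per the file headers, 2 deposited columns are on the log2 scale (fold change, standard error), 1 is a score (the Wald statistic), and the p-value columns give the authors' unadjusted and Benjamini-Hochberg adjusted p-values. These 2 tables hold 0 columns of per-sample values, so the authors' test was used as it stands, with 0.05 as the threshold.

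The members' ES cell standard errors do not exceed 0.33 even at a mean of 18.5, which is why these fold changes are described as appearing shrunken.

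Whole reads were recovered by writing each mean as a sum of whole reads times a fixed step per column. In blastocysts the deposited fold change and standard error chose among solutions, with a likelihood ratio of 1000 between rivals; in ES cells exact arithmetic did, and for 2 members with 2 candidates the deposited fold change. Sides follow the sign of the fold change. All 3572 blastocyst means up to 3 and all 1996 ES cell means up to 8 were sums of whole reads. Of recovered counts above 0, 96.3% were even in blastocysts and 49.6% in ES cells. The recovered genes (12928 and 12621) held 594424 to 1380096 reads per blastocyst column and 800390 to 1310215 per ES cell column, which is only part of each library. Reads carry no molecular identifiers, so limits at 0 reads cover counting error only.

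Lengths and coding sequences came from GENCODE M21 (GRCm38), gene coordinates from the tables. The level is the mean per kb of all exons. Calculations used Python with numpy, pandas, scipy and numba.

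Members and lists were chosen with earlier results of these data known. Full values are given for members at an unadjusted p under 0.05, the extremes of fold change at a mean of at least 50, the 3 highest and 3 lowest levels and the paralog pairs; Cnot4, Pan3, Dcps, Lsm4 and the NMD genes were added after their values were seen. Further pathway genes are named at an unadjusted p under 0.05, apart from Upf3b.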

Additional observations from a re-analysis of the deposited data

Results flagged for a closer look

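Cnot6 and Pan3 are the members whose sides did not overlap in either table and whose direction was opposite in the 2 materials. The authors' deposited tables give Cnot6 a log2 fold change of −0.41 for blastocysts and 0.50 for ES cells, with all 3 positive-side columns below the negative side in blastocysts and both above it in ES cells. They give Pan3 0.71 for blastocysts and −0.25 for ES cells, again from the authors' deposited tables. The log2 ratio of recovered Pan3 reads in ES cells was −0.30. It was −0.08 without the second negative-side column and −0.49 without the first. The difference between materials was not tested for either gene. The share of all genes that meet this rule was not computed. In single tables, 12.0% of blastocyst genes and 40.3% of ES cell genes did not overlap. These 2 members are therefore not shown to exceed what all genes give. Neither table states the direction of its comparison, so the opposite signs hold for the tables as deposited.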

How the results depend on the processing

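No paired analysis was possible because neither table holds values per sample and the recovered count columns carry no replicate numbers. The count of members past the adjusted threshold was 0 in both tables under each of the 4 alternatives tried (a threshold of 0.01, adjustment over every gene with a p-value, a mean of at least 50, and statistics rescaled and centred). The count at an unadjusted p under 0.05 in ES cells went from 1 to 0 at a threshold of 0.01. Leaving out each recovered column moved the members' median log2 fold change between −0.10 and 0.06 in blastocysts and between 0.01 and 0.09 in ES cells, within the spread between columns (SD 0.12 and 0.07). Without the second negative-side column, a setting added after seeing the data, 18 blastocyst and 25 ES cell members did not overlap, in place of 9 and 12; fewer columns compared give more such genes by construction. The log2 ratio of Cnot6l in ES cells was −0.91 without the first positive-side column and −0.96 without the first negative-side column. It was −0.45 and −0.29 without the second of each side. In blastocysts it was 1.84 without the second negative-side column and between 0.82 and 1.39 without any other. The median percentile of level per length fell from 71.2 to 67.3 in blastocysts and from 66.6 to 63.9 in ES cells when the longest transcript was used. Depth limited low members most: Dcp1b has a mean of 14.2 in blastocysts.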
